A study of Danio rerio with 4 samples.

Results

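Chemokines are small secreted proteins that steer migrating cells, and they act through G-protein-coupled receptors on the responding cell. Atypical receptors (ackr) bind the same ligands without classical G-protein signalling and remove them from the tissue. In the heart, chemokines are known for recruiting leukocytes after injury and, in the case of the Cxcl12 ligands and the Cxcr4 receptor, for guiding vessels and epicardial cells. The genes described here are those whose symbol is ccl, cxcl, ccr, cxcr, xcr or ackr followed by a number. This rule found 41 of the 20905 genes in the files: 21 ligands and 20 receptors. By symbol alone, the 4 ackr genes are called atypical here and the other 16 receptors signalling. The name table holds 80 such symbols in all, and the others had no entry in these data, so they could not be analysed.

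Zebrafish (Danio rerio) of 2 genotypes were compared at 7 days after cryoinjury of the adult ventricle, at 4 to 18 months of age and in both sexes: prrx1b-/- fish, homozygous for the nonsense allele el491 of the transcription factor gene prrx1b, and their WT siblings. All fish carried the transgenes Tg(tcf21:CreERT2), in which the promoter of the epicardial gene tcf21 drives the recombinase, and the colour switch Tg(ubi:loxP-EGFP-loxP-mCherry). They were recombined with 4-hydroxytamoxifen as embryos, so that cells of the tcf21 lineage were sorted as mCherry positive (the labels call the line Tg(tcf21:mCherry)). Single cells from 20 pooled hearts per genotype were sorted into 2 plates of 384 wells for prrx1b-/- and 2 plates for WT, and mRNA 3′ ends were counted once per molecule. Nothing says that the plates of a genotype came from different fish, so differences between plates may be technical. The standard errors and p-values of genotype differences below rest on this spread between plates and need not cover variation between fish.

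Wells with at least 1000 transcripts were kept as cells. These were 366 and 366 cells in the prrx1b-/- plates and 357 and 364 cells in the WT plates, 1453 in all. Median transcripts per cell were 7654 and 7543 in prrx1b-/- and 6055 and 5065 in WT, so detection is given below also after thinning each cell to 1000 transcripts. The epicardial gene TCF21 gave 369 and 239 transcripts in prrx1b-/- and 286 and 309 in WT. Collagen and other fibroblast markers summed to between 40122 and 57287 CPM (transcripts of the gene per 1000000 transcripts of the plate) in each plate, and endothelial markers to between 33.5 and 46.3 CPM. The 4 defining leukocyte genes (ptprc, LCP1, CORO1A, SPI1) gave 5 and 4 transcripts in the prrx1b-/- plates, and 68 and 2 in the WT plates. Of the 68, 66 sat in 2 wells, and results that rest on them are given with and without those wells. WT plate 1 also had more cardiomyocyte marker transcripts, 144 CPM against 9.13 to 33.2 CPM in the other plates. The name table gives PRRX1 to 2 gene IDs and does not say which is prrx1b. ENSDARG00000033971 had 97.0 and 138 CPM in prrx1b-/- against 117 and 122 CPM in WT. The other, ENSDARG00000042027, had 3.98 and 2.60 CPM in prrx1b-/- against 2.40 and 1.14 CPM in WT, from 3 to 15 transcripts per plate. The paper states that prrx1b was too low in these cells to be linked to a cluster. A 3′ count of a nonsense allele does not check the genotype.

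Ligand transcripts far outnumbered receptor transcripts. Over all cells the ligands gave 46508 transcripts, 0.364% of all transcripts, and the receptors 2352, or 0.0184%. The 3 ligands cxcl18b, CXCL12 and ccl25b made up 97.8% of the ligand transcripts. Among the receptors the atypical ones led, with 72.0% of receptor transcripts. Only 13 genes reached 50 transcripts (6 ligands, 3 atypical receptors and 4 signalling receptors), and the remaining 28 together held 386 transcripts, 0.791% of the total of the group. Because one transcript is counted per molecule from its 3′ end, these levels do not depend on gene length.

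**Figure D1:**
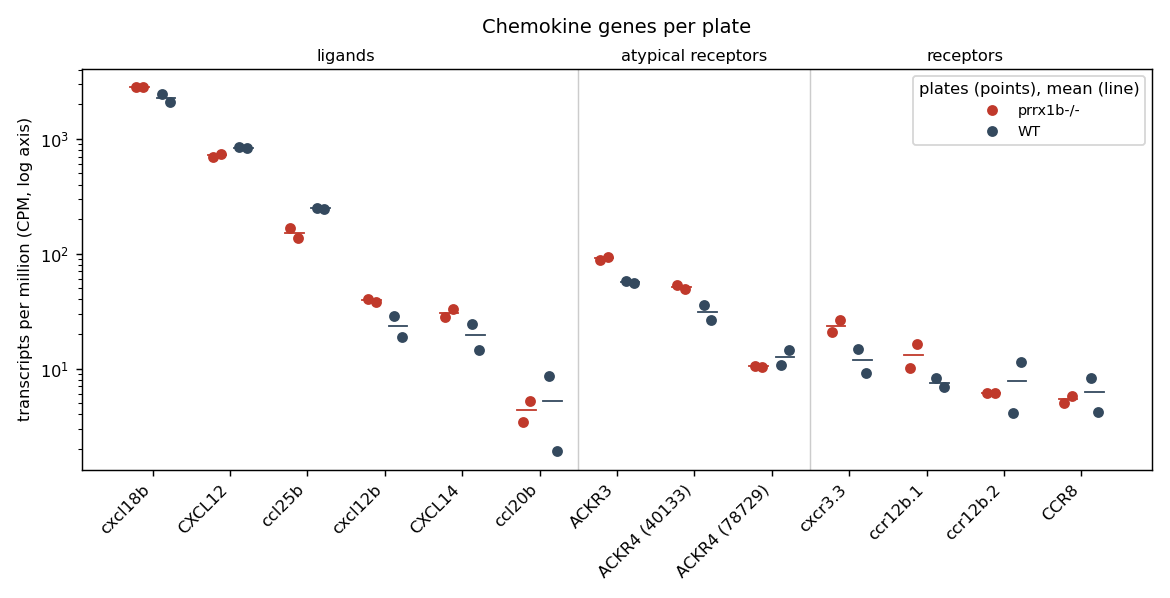
Level of the 13 chemokine genes with at least 50 transcripts, in CPM on a log axis. Points are plates (prrx1b-/- left, WT right) and lines are means of 2 plates; cxcl18b lies above 2000 CPM in every plate, while no receptor exceeds 94.3 CPM.

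The most abundant member was the ligand cxcl18b (ENSDARG00000075045), an inflammatory CXC chemokine that attracts neutrophils in zebrafish larvae. With 33134 transcripts it ranked 43rd among the 20880 genes that had a transcript in the kept cells. At least 1 transcript was present in 93.5% of cells (1358 of 1453, exact 95% interval 92.1 to 94.7%, counting error only), and 1035 cells held 5 or more. After thinning, 71.4% of cells held cxcl18b. Its level was 2834 and 2829 CPM in the prrx1b-/- plates, against 2473 and 2073 CPM in the WT plates. Both prrx1b-/- plates thus lay above both WT plates. In such plate sums, fewer cells of a type and less RNA per cell cannot be told apart. The log2 fold change was 0.34 ± 0.14 (SE), and with an adjusted p of 0.306 (edgeR quasi-likelihood test, Benjamini-Hochberg over 11191 genes) the difference did not pass the test. The same test on thinned counts gave 0.40 ± 0.13 with an adjusted p of 0.0501, which did not pass either. The call turned on single plates: the adjusted p was 7.0e-04 without WT plate 1 and 0.0360 without WT plate 2, but 0.865 without prrx1b-/- plate 1 and 0.922 without prrx1b-/- plate 2. Each such fit, here and for the genes below, leaves 1 genotype with a single plate that is assumed to vary like the 2 plates of the other, so its p is given as a dependence on that plate and not as support for a difference.

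CXCL12 (ENSDARG00000037116, which the RefSeq names match to cxcl12a), the ligand of Cxcr4 and Ackr3, was the second most abundant, with 9855 transcripts in 1007 cells. It had 701 and 739 CPM in prrx1b-/- and 841 and 837 CPM in WT. The genotypes did not overlap, and the log2 fold change was -0.20 ± 0.13 with an adjusted p of 0.528. The same edgeR test on counts thinned to 1000 transcripts per cell gave -0.43 ± 0.15 with an adjusted p of 0.0952. The other zebrafish Cxcl12 ligand, cxcl12b (ENSDARG00000055100), was rare and uneven: its 417 transcripts came from 75 cells, and the 10 highest cells held 72.4% of them. Its levels were 40.7 and 38.0 CPM in prrx1b-/- against 28.6 and 18.7 CPM in WT, a log2 fold change of 0.75 ± 0.22 with an adjusted p of 0.136. It was 1.06 with an adjusted p of 0.0123 without WT plate 1 and 0.54 with 0.184 without WT plate 2, while leaving out a prrx1b-/- plate gave adjusted p-values of 0.456 (plate 1) and 0.225 (plate 2). The share of cells with cxcl12b was 6.56 and 5.74% in prrx1b-/- and 4.48 and 3.85% in WT. After thinning it was 2.46 and 2.73% in prrx1b-/- and 1.68 and 2.20% in WT.

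ccl25b (ENSDARG00000070873) is a relative of mammalian CCL25, the ligand of CCR9 that attracts lymphocytes to thymus and gut. It was found in 607 cells and was lower in both prrx1b-/- plates, at 167 and 138 CPM, than in both WT plates, at 251 and 244 CPM. The log2 fold change was -0.68 ± 0.15 and the adjusted p 0.0611, just short of the threshold of 0.05. After thinning, 11.5 and 11.2% of prrx1b-/- cells held a ccl25b transcript, against 16.5 and 17.6% of WT cells. Counts thinned to equal depth gave a log2 fold change of -0.92 with an adjusted p of 4.4e-04, and DESeq2 gave -0.65 with an adjusted p of 0.0137. The adjusted p was 0.00674 without WT plate 1 and 0.00990 without WT plate 2, but 0.223 without prrx1b-/- plate 1 and 0.645 without prrx1b-/- plate 2. Over the 14 alternatives run the log2 fold change lay between -0.92 and -0.53. All of them reuse these plates, whose genotypes did not overlap, so the shared sign is no added support for a difference.

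The remaining ligands with at least 50 transcripts were CXCL14 and ccl20b. CXCL14 (ENSDARG00000056627), a chemokine of resting epithelia and stroma in mammals, had 28.4 and 33.0 CPM in prrx1b-/- and 24.4 and 14.5 CPM in WT, a log2 fold change of 0.67 ± 0.24 with an adjusted p of 0.245. Without WT plate 1 it was 1.07 with an adjusted p of 0.0249, and without WT plate 2 it was 0.40 with 0.407. Leaving out prrx1b-/- plate 1 gave 0.78 with an adjusted p of 0.372, and leaving out prrx1b-/- plate 2 gave 0.58 with 0.666. ccl20b (ENSDARG00000094511), related to the CCR6 ligand CCL20, had 3.45 and 5.20 CPM in prrx1b-/- and 8.59 and 1.90 CPM in WT. The 2 WT plates enclosed the 2 prrx1b-/- plates, and 10 cells held 72.2% of its 61 transcripts.

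Among the receptors, ACKR3 (ENSDARG00000058179), the scavenger of Cxcl12, was the most abundant, with 971 transcripts in 409 cells. It had 87.8 and 94.3 CPM in the prrx1b-/- plates against 57.3 and 55.9 CPM in the WT plates. This log2 fold change of 0.70 ± 0.15 carried the smallest adjusted p of the group, 0.0608, and did not pass the threshold. At equal depth 9.29 and 10.4% of prrx1b-/- cells held ACKR3, against 5.88 and 5.77% of WT cells, and the fit to those thinned counts gave 0.90 with an adjusted p of 0.0429. DESeq2 gave 0.73 with an adjusted p of 0.0380. The adjusted p was 0.0321 without WT plate 1 and 0.0171 without WT plate 2, but 0.264 without prrx1b-/- plate 1 and 0.347 without prrx1b-/- plate 2. Over the 14 alternatives run the log2 fold change lay between 0.67 and 0.90. All of them reuse these plates, whose genotypes did not overlap, so the shared sign is no added support for a difference.

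There are 2 gene IDs that carry the name ACKR4, which in mammals removes CCL19, CCL21 and CCL25. The more abundant, ENSDARG00000040133, had 53.3 and 48.9 CPM in prrx1b-/- and 36.0 and 26.6 CPM in WT, a log2 fold change of 0.72 ± 0.19 with an adjusted p of 0.105. The adjusted p was 0.0157 without WT plate 1, 0.121 without WT plate 2, 0.494 without prrx1b-/- plate 1 and 0.227 without prrx1b-/- plate 2. The other, ENSDARG00000078729, had 10.6 and 10.4 CPM in prrx1b-/- and 10.6 and 14.5 CPM in WT, with a log2 fold change of -0.23 ± 0.29. Reads shared between such copies could have been split by the mapping. ACKR2, which scavenges inflammatory CC chemokines in mammals, gave 33 transcripts in all.

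Signalling receptors were scarce. cxcr3.3 (ENSDARG00000070669), a zebrafish Cxcr3 form described as a scavenger of ligands for the related Cxcr3.2, was the highest. It was counted as signalling by its symbol and held 237 of the 658 transcripts of that class. The shares and ratios given by class rest on this. cxcr3.3 had 20.7 and 26.6 CPM in prrx1b-/- and 14.8 and 9.13 CPM in WT, a log2 fold change of 0.99 ± 0.27 with an adjusted p of 0.113. The adjusted p was 0.0165 without WT plate 1, 0.147 without WT plate 2, 0.0697 without prrx1b-/- plate 1 and 0.402 without prrx1b-/- plate 2. ccr12b.1 had 10.1 and 16.2 CPM in prrx1b-/- and 8.23 and 6.85 CPM in WT, a log2 fold change of 0.80 ± 0.33 with an adjusted p of 0.304. For ccr12b.2 the values were 6.10 and 6.07 CPM in prrx1b-/-, inside the 4.12 and 11.4 CPM of WT. CCR8, which marks regulatory T cells and other lymphocytes in mammals, likewise had 5.04 and 5.78 CPM in prrx1b-/- between the 8.23 and 4.19 CPM of WT. For both genes the fold change could not be told from 0, at -0.32 ± 0.46 for ccr12b.2 and -0.19 ± 0.42 for CCR8 on the log2 scale.

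CXCR4, a signalling receptor of Cxcl12, was found under a single gene ID, ENSDARG00000041959. This ID gave only 15 transcripts in 8 cells, 64.8 times fewer than ACKR3. Any other Cxcr4 gene without a matched name or counts would be missed here. ENSDARG00000041959 had 1 and 1 transcripts in the prrx1b-/- plates and 9 and 4 in the WT plates. Of the 15, 8 lay in the 2 wells with defining leukocyte markers. CCR9, the receptor of CCL25 in mammals, gave 3 transcripts, of which 2 were in those wells. The same wells held 44.2 of 46.2 transcripts of ccl35.2, 29.1 of 40.1 of ccl34b.4 and all 7 of CXCR3. They carried 17 and 9 of the 22 leukocyte markers matched and were deep, with 36780 and 20718 transcripts.

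The other members under 50 transcripts lay between 1 and 41. XCR1 (ENSDARG00000052988), which marks cross-presenting dendritic cells in mammals, had 38 transcripts, at 2.39 and 1.16 CPM in prrx1b-/- and 5.15 and 3.80 CPM in WT. Its log2 fold change of -1.29 ± 0.55 carried an adjusted p of 0.320. CCR7, the receptor of CCL19 and CCL21 in mammals, had 25 transcripts. Of its candidate ligands, ccl19b had 20 transcripts and ccl19a.1 had 16. In all 17 members had fewer than 10 transcripts and 9 of these at most 3, where a difference between genotypes was not detectable at this depth (3 transcripts correspond to between 0.795 and 1.14 CPM per plate).

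In all, 15 of the 41 members passed the filter on low counts and none of them passed the genotype test at an adjusted p of 0.05, where 0.357% of the 11191 genes tested were called higher in prrx1b-/- and 0.617% lower (0.974% in either direction). At an unadjusted p of 0.05, 7 of the 15 were higher and 2 lower, ccl25b and XCR1, beside 6.92% of all genes tested that were higher and 7.13% that were lower. DESeq2 gave an adjusted p to 5 members and called 2, ACKR3 higher and ccl25b lower, beside 2.88% of the 3474 genes with an adjusted p that it called higher and 2.19% that it called lower. Of the 13 members with at least 50 transcripts, 7 had both prrx1b-/- plates above both WT plates and 3 had both below, against 21.2% and 24.1% of the 10279 genes with as many transcripts. The median log2 fold change of the 15 members was 0.28, against -0.01 over all genes tested.

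**Figure D2:**
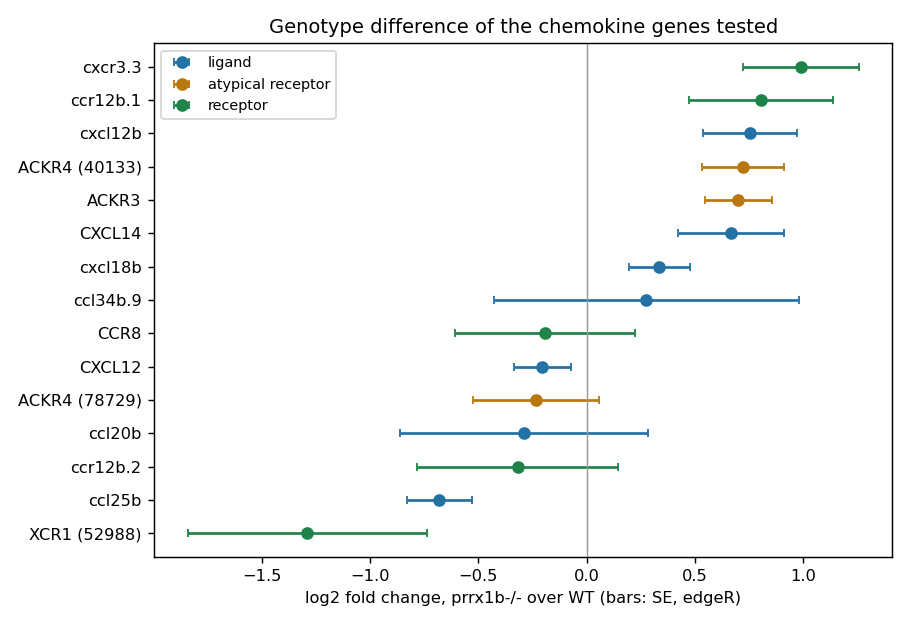
Log2 fold change of the 15 chemokine genes tested, prrx1b-/- over WT, with the standard error of the edgeR fit as bars. Values run from 0.99 for cxcr3.3 to -1.29 for XCR1, and none passed an adjusted p of 0.05.

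Ligands were then set against receptors within each plate. Summed ligand transcripts were 3781 and 3795 CPM in prrx1b-/- and 3668 and 3205 CPM in WT, while summed receptor transcripts were 202 and 217 CPM in prrx1b-/- and 161 and 140 CPM in WT. Ligands exceeded receptors 18.7-fold and 17.5-fold in the prrx1b-/- plates and 22.8-fold and 22.8-fold in the WT plates. The log2 ratio was above 0 in 4 of 4 plates, with a mean of 4.34 and a p of 0.13 by an exact two-sided sign-flip test, the smallest that 4 plates allow. The ratio was lower by 0.34 on the log2 scale in prrx1b-/- (difference -0.34), with p = 0.33 in a two-sided exact permutation test, the smallest that 2 against 2 plates allow.

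This difference depended on which genes were summed. Without cxcl18b the log2 ratios were 2.23 and 2.15 in prrx1b-/- and 2.89 and 3.01 in WT, a difference of -0.76. With the atypical (ackr) receptors left out and cxcr3.3 kept, they were 6.28 and 5.96 in prrx1b-/- and 6.11 and 6.27 in WT. The genotypes then overlapped and the difference shrank to -0.07.

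Nearly every cell held a ligand transcript: 97.8 and 97.8% of prrx1b-/- cells and 97.5 and 97.5% of WT cells. At equal depth the ligand shares were 84.2 and 83.9% in prrx1b-/-, inside the 80.7 and 86.0% of WT. A receptor transcript was found in 66.9 and 70.8% of prrx1b-/- cells, against 54.3 and 46.7% of WT cells, a difference of 18.3 percentage points (p = 0.33, two-sided exact permutation test, the smallest possible). At equal depth the receptor shares were 22.1 and 23.8% in prrx1b-/- and 15.1 and 15.1% in WT, so the order was kept with smaller shares. Atypical receptors alone were present in 18.3 and 16.7% of thinned prrx1b-/- cells and 12.04 and 11.3% of thinned WT cells. For signalling receptors the thinned shares were 3.83 and 7.92% in prrx1b-/- and 3.08 and 3.85% in WT, and these overlapped.

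**Figure D3:**
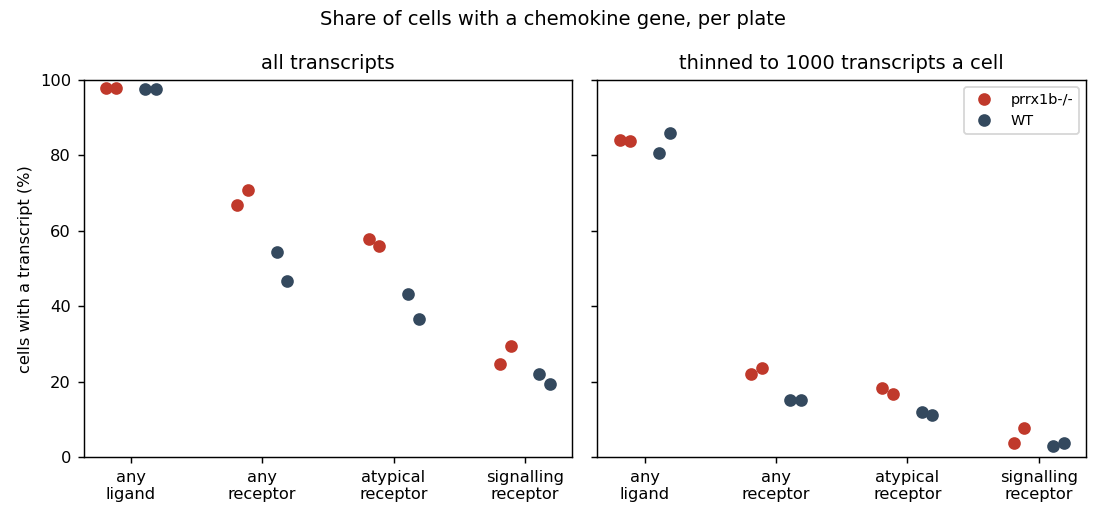
Percentage of cells per plate with at least 1 transcript of any ligand, any receptor, an atypical or a signalling receptor (prrx1b-/- left of WT), before and after thinning to 1000 transcripts a cell. Receptor shares are 66.9 and 70.8% in prrx1b-/- and 54.3 and 46.7% in WT before thinning; ligand shares lie above 97% in all plates before thinning and between 80.7 and 86.0% after it.

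The members were also spread unevenly over clusters of cells, which are named by their leading genes and not as cell types. Cells were clustered without the chemokine genes into 10 groups by k-medoids, as a description with no test. cxcl18b was high in every group and lowest, at 1489 CPM, in the group led by COL11A1 and CILP2. Its highest level, 4080 CPM, was in the group led by si:ch211-106h4.12, si:dkey-238c7.13 and si:dkeyp-1h4.9, followed by adh8a and c7b. That group held 26 and 27 prrx1b-/- cells and 85 and 46 WT cells. CXCL12 reached 1038 CPM in the COL11A1 group and 1012 CPM in the group led by AOC3 and MDK. Among these 10 groups, the COL11A1 group was the lowest for cxcl18b, ccl25b (86.6 CPM) and ACKR3 (37.2 CPM). The lowest group changed with other clusterings, as given further below. ccl25b was highest in the AOC3 group, at 432 CPM. ACKR3 lay between 186 and 192 CPM in 3 groups, led by the heat-shock gene hsp70l, by mgp and MYOC, and by the immediate early genes FOS and egr1. The last of these was also the highest for ACKR4 (ENSDARG00000040133), at 148 CPM.

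Because the genotypes filled these groups unequally, genotype values were also averaged over the 10 groups with equal weight. Both prrx1b-/- plates lay above both WT plates for ACKR3 in 5 of the 10 groups and below in 0, and for ACKR4 (ENSDARG00000040133) likewise in 5 and 0. ccl25b lay below in 4 groups and above in 0, and CXCL12 below in 5 and above in 0. cxcl18b and ccr12b.1 lay above in 4 and below in 0, and ccl20b above in 3 and below in 0. cxcr3.3 lay above in 6 and below in 1, and CXCL14 above in 4 and below in 2. For cxcl12b it was 3 above and 1 below. CCR8 and ccr12b.2 lay above in 1 and below in 2, and ACKR4 (ENSDARG00000078729) above in 0 and below in 2. The share of all genes with such an order within a group was not computed, so these counts are no result about the members. Over whole plates, 21.2% of genes with at least 50 transcripts lay above and 24.1% below, but these shares do not apply within a group. The smallest group held 7 and 16 prrx1b-/- cells and 22 and 16 WT cells. The equal-weight log2 ratios of prrx1b-/- over WT were 0.57 for ACKR3, 0.74 for ACKR4 (ENSDARG00000040133), -0.68 for ccl25b and 0.42 for cxcl18b. They were 0.83 for cxcr3.3, 0.80 for CXCL14 and -0.37 for CXCL12. For cxcl12b and ccr12b.1 they were 0.39 and 0.43, below their whole-plate log2 fold changes of 0.75 and 0.80. For ccl20b the ratio was 0.51, against -0.29 over whole plates. ACKR4 (ENSDARG00000078729), CCR8 and ccr12b.2 had -0.49, -0.52 and -0.85.

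A graph-based (Leiden) clustering of the same genes set the pattern of cxcl12b apart most clearly. It found 12 groups, of which 1 of 76 cells was led by RGS5, MYH11, MCAM and acta2. RGS5, MYH11 and acta2 are on the list of pericyte markers used here, of which 10 were raised, but MYH11 and acta2 also mark smooth muscle, so the group is called by its leading genes. It held 87.1% of all cxcl12b transcripts, at 1475 CPM against 4.31 CPM in the other 1377 cells. cxcl12b was found in 42.1% of its cells and 3.12% of the others, although its cells were shallower, with a median of 2233 transcripts against 6891. In the k-medoids groups, 89.2% of cxcl12b transcripts lay in the 2 groups led by RGS5 and by acta2. These groups held 39 of the 75 cells with cxcl12b and 429 of the 1378 cells without it. The RGS5 group, of 325 cells, was also led by the cardiomyocyte markers MYL7 and cmlc1. The smooth muscle myosin gene MYH11 was present in 49.3% of the 75 cells with cxcl12b and in 8.85% of the other 1378 cells, and the pericyte channel gene KCNJ8 in 37.3% and 10.2%. Other genes of the pericyte list differed less in detection. TAGLN (ENSDARG00000033466) was present in 92.0% and 91.6%, and rgs5b in 57.3% and 48.9%.

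Within the RGS5 and MYH11 group the genotypes overlapped for cxcl12b, at 1627 and 1527 CPM in the prrx1b-/- plates (16 and 21 cells) and 1141 and 1662 CPM in the WT plates (23 and 16 cells). ACKR3 was nearly absent there, with 2 transcripts (8.12 CPM, against 77.4 CPM in the other cells). CXCL12 had 610 CPM in these cells and 775 CPM in the others. Its highest Leiden group, led by ADM and AOC3, had 1889 CPM of CXCL12 and was also the highest for ccl25b, at 713 CPM. In that group ccl25b had 591 and 366 CPM in prrx1b-/- and 897 and 1148 CPM in WT.

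**Figure D4:**
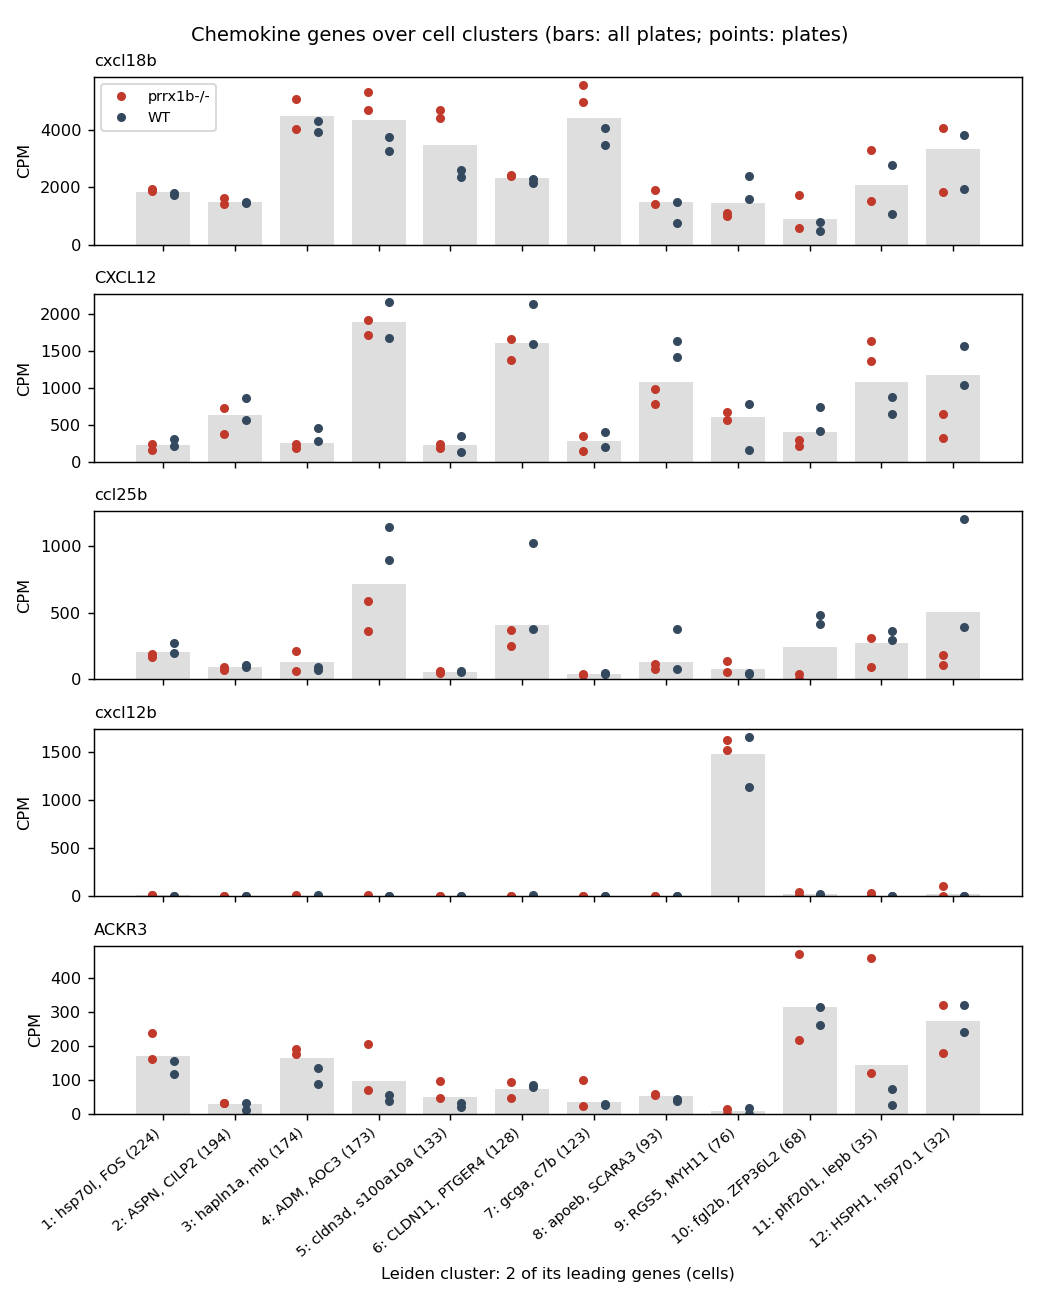
Level of 5 chemokine genes, in CPM, over the 12 Leiden groups (named by 2 leading genes, with cell numbers); bars are all plates together, points are plates (prrx1b-/- left, WT right). cxcl12b stands at 1475 CPM in the RGS5 and MYH11 group and at 22.3 CPM or less elsewhere, while ACKR3 is lowest in that group at 8.12 CPM.

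Ligands were also compared with their receptors in the same cells, as a description over cells that share plates and depth. ACKR3 was found in 30.1% of the 1007 cells with CXCL12 and 23.8% of the 446 without it, but after thinning in 6.24% (exact 95% interval 4.33 to 8.65%) and 8.77% (7.02 to 10.8%). The order turned with depth and the thinned intervals overlapped. For cxcl12b, ACKR3 was present in 18.7% of the 75 positive cells and 28.7% of the others. After thinning it was in 3.03% of 33 positive cells (0.0767 to 15.8%) and 7.96% of the others (6.60 to 9.49%), and these intervals overlapped. ACKR4 (both IDs together) was in 30.6% of cells with ccl25b and 29.0% of cells without, and in 7.77 and 7.06% after thinning. By contrast the ligands CXCL12 and ccl25b occurred together: ccl25b was found in 49.9% of cells with CXCL12 and 23.5% of cells without it, and in 21.0% and 10.3% after thinning.

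The genes whose level was most like that of the leading ligand and receptor were taken by the mean within-plate Pearson correlation across cells, over 5783 genes found in at least 10% of the 1453 cells. For cxcl18b these were sdc4 (0.44), ZFP36L1 (0.41), MVP (0.40), EIF1 (0.37) and DAB2 (0.37); sdc4 encodes a cell-surface heparan sulphate proteoglycan of the kind that holds chemokines at the cell surface. For ACKR3 they were fgl2b (0.28), HTRA1 (0.27), cd34 (0.23), PRELP (0.22) and flnb (0.21). These values share plate and depth and are descriptions.

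A list of genes related to chemokine signalling was also looked at, and not all of them lie downstream of a receptor. It holds G-protein subunits, arrestins, receptor kinases, heparan sulphate carriers, NF-kB genes and others such as MIF and cd74. Of these genes, 33 were matched and 25 tested. None was higher in prrx1b-/- and 2 were lower, beside 0.357% of all genes tested that were higher and 0.617% that were lower. The list was chosen with earlier results of these data known, so its count is no independent test. The 2 lower genes were cd74a and cd74b, which encode the invariant chain of MHC class II and a receptor of the cytokine MIF. cd74a had 13.0 and 9.83 CPM in prrx1b-/- against 133 and 78.8 CPM in WT, a log2 fold change of -3.19 ± 0.26 (adjusted p = 1.7e-04). For cd74b the values were 12.2 and 10.4 CPM in prrx1b-/- against 75.1 and 98.2 CPM in WT, with a log2 fold change of -2.92 ± 0.22 (adjusted p = 1.1e-04). The summed leukocyte markers were 167 and 164 CPM in prrx1b-/- and 248 and 185 CPM in WT. This sum includes arhgdig, itgb2 and cyba, each with 118 to 197 transcripts in every plate, so it is no direct measure of leukocyte number. The 4 defining leukocyte genes gave 5 and 4 transcripts in the prrx1b-/- plates and 68 and 2 in the WT plates. Whether the cd74 genes followed leukocyte number was not tested. Without the 2 wells with defining leukocyte markers the log2 fold changes were -2.55 for cd74a and -2.70 for cd74b, both still past the threshold (adjusted p 2.8e-04 and 9.9e-04). MIF itself overlapped between genotypes, at 73.7 and 77.2 CPM in prrx1b-/- and 69.7 and 94.4 CPM in WT. The median log2 fold change of the 25 genes was -0.08.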

How the data were processed

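Single-cell RNA-seq libraries were made with SORT-seq, which uses the CEL-Seq2 chemistry with a random molecular barcode in each primer. Reads were mapped with BWA 0.6.2, per the submitters' processing notes, to the Zv9 assembly, per the study's methods. The authors deposited expected counts of transcripts per gene and well (molecular barcode counts corrected for barcode collisions, hence not whole, and not scaled). The series description gives 1438 cells, which the paper reports as those analysed after its own cutoff of 1000 reads per cell. The files hold 384 wells per plate, and the 1453 wells with at least 1000 transcripts of Ensembl genes were used here. The plates share 1 set of well barcodes, doublets were not called, and spike-ins were left out. The genes and lists were chosen with earlier results of these data known.

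Expected counts were summed per plate, rounded and tested with edgeR 4.0.16 (R 4.3.3; TMM, filterByExpr, quasi-likelihood test, Benjamini-Hochberg over all genes, threshold 0.05), prrx1b-/- over WT. Checked on simulated counts for 11191 genes, this fit called 53 of 100 genes changed 2-fold and 83 of 100 changed 4-fold. It also called 10 of 10991 unchanged genes. The changed genes were drawn at random with a spread fitted to these 4 plates, so the rates are not those of the low-count members. DESeq2 1.42.0, other minimum counts, thinning and leaving out each plate were alternatives. Shares of cells have exact binomial intervals, which cover counting error only. Clusters used 1341 variable genes without the chemokine genes: k-medoids into 10 groups, with 8 or 12 groups and Leiden (scanpy 1.11.5) as alternatives. Members with at least 50 transcripts were named with each plate's value. Genes called most like CXCL12, the 2 marker-rich wells and the genes named beside cxcl12b were chosen after their values were seen.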

Additional observations from a re-analysis of the deposited data

How the results depend on the processing

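No chemokine gene passed the genotype test as reported, and the number that did moved with the setting. With the plate number as a replicate block, 4 were called higher (ACKR3, ACKR4 ENSDARG00000040133, cxcl12b, cxcr3.3) and 1 lower (ccl25b), while calls over all genes went to 476 against 109 of 11191 without it. The labels give same-numbered plates only that number in common. The correlation of their deviations was 0.035. With 2 plates per genotype this is a single value, and it cannot show whether they share a batch. The block result is no paired analysis of fish. With every gene with a transcript tested, 4 were higher and 4 lower (523 of 20880 genes). Thinned counts gave 1 and 1 (172 of 4263 genes), and DESeq2 gave 1 and 1 (176 of 3474). Without wells with 3 or more leukocyte marker genes 1 was higher, ACKR3, beside 122 of 10478 genes called in all. Leaving out 1 plate gave 0 to 6 higher and 1 to 4 lower. The count of 6 came without WT plate 1 and that of 4 without WT plate 2, with 579 of 11989 and 582 of 12266 genes called in all; in these fits 1 genotype has a single plate, assumed to vary like the other genotype. When either prrx1b-/- plate was left out, the members called lower were ccl35.2 and ccl34b.4, whose transcripts lie mostly in the 2 marker-rich wells. Those fits leave prrx1b-/- with a single plate, so their calls are no result about the members. The cause of these shifts was not tested. Without those 2 wells (an alternative chosen after seeing the data) 0 members passed, beside 127 of 11167 genes called in all.

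Directions reversed for 5 low genes (log2 fold changes). ccr12b.2 was 0.065 without wells with 3 or more leukocyte marker genes and -0.92 to 0.63 when 1 plate was left out, and CCR8 was 0.088 without those wells and -0.53 to 0.35 when 1 plate was left out. Leaving out 1 plate moved ccl34b.9 between -1.09 and 1.08, ccl20b between -0.92 and 1.15 and ACKR4 (ENSDARG00000078729) between -0.47 and 0.055. The difference in the share of cells with a ligand turned to -0.34 percentage points at a minimum of 2000 transcripts. The log2 ratio of highest to lowest group moved under Leiden to 2.31 for cxcl18b, 3.03 for CXCL12 and 3.93 for ccl25b. For ACKR3 it moved to 4.17 and for cxcl12b to 7.09. With 8 or 12 groups it did not move beyond its spread between plates. Which group was lowest changed too. With 12 groups cxcl18b was lowest in the hsp70l group (1457 CPM). Under Leiden cxcl18b was lowest in the group led by fgl2b and ZFP36L2 (899 CPM). There ccl25b was lowest in the group led by gcga and c7b (37.5 CPM), and ACKR3 in the RGS5 and MYH11 group (8.12 CPM). The direction of the ligand to receptor ratio and of the receptor share held under each alternative run, all of which reuse the same plates.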

Other observations

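The likeness of CXCL12 and ccl25b was looked at after their values were seen. The genes most like CXCL12 over the cells, by the mean within-plate correlation, were CLU (0.49), c4b (0.44), BHMT (0.36), pcolcea (0.36) and ccl25b (0.35). The gene most like ccl25b was CXCL12, followed by DHRS3 (0.25), BHMT (0.25), pcolcea (0.24) and CLU (0.23). The correlation of CXCL12 with ccl25b lay between 0.30 and 0.43 in the 4 plates.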
